A study of Rattus norvegicus with 108 samples.

Results

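Microglia of the ventral dentate gyrus (venDG) were taken from a single-cell count table of rats given fluoxetine (FT) or water (Sham). A cell was counted as a microglial cell when at least 3 of the 6 markers Cx3cr1, P2ry12, Csf1r, C1qa, C1qb and C1qc had a unique molecular identifier (UMI, a tag that counts 1 captured transcript) and at most 1 of the 9 genes Cldn5, Flt1, Pecam1, Slc1a3, Gja1, Mog, Mag, Pdgfra and Cspg4, which mark endothelial cells, astrocytes, oligodendrocytes and their precursors, had one. This rule kept 191 of 2058 ventral cells, out of 3347 cells in both regions. All rats were male Long-Evans animals, 2 months old at the start, with no transgene and no surgery named. FT rats drank fluoxetine, a serotonin reuptake inhibitor, at 18 mg/kg body weight per day for 6 weeks. Sham rats drank water without the drug for the same time. Each replicate pooled tissue punches of 3 animals, and venDG had 5 FT and 5 Sham replicates. The protocol in the labels names nuclei, while the study's methods describe both dissociated whole cells and nuclei, and neither says which 10x reaction held which. The FT replicates 1 to 5 held 12, 33, 30, 20 and 8 microglial cells, and the Sham replicates held 34, 12, 5, 31 and 6.

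Microglia are the resident macrophages of the brain. They survey the tissue with mobile processes, clear debris and synapses through complement, Fc and lipid receptors, and degrade what they take up in lysosomes. When disturbed they release chemokines and cytokines within hours, and dissociation of brain tissue is known to switch on immediate early genes in them. In the dentate gyrus they also clear dying newborn cells of the neurogenic niche.

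The 6 markers were detected very unequally, which is a description because they chose the cells. C1qa, the first chain of complement component C1q, had a UMI in 191 members, C1qb in 189 and C1qc in 175. Csf1r, the receptor for colony stimulating factor 1 on which microglial survival depends, was detected in 169. Cx3cr1, the fractalkine receptor, was detected in 39 (20.4%) and P2ry12, the ADP receptor of resting microglia, in 18 (9.42%). The members were therefore selected mostly on the detection of C1q and Csf1r, and border macrophages share those genes. C1qa also had a UMI in 29.4% of the other ventral cells, whose median depth of 3346 UMIs was close to the 3377 of the members. Those cells include profiles with several markers that the rule left out, and how much of this share was free RNA was not tested.

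The cells at the edge of the rule were examined without a test. The 34 members with exactly 3 markers held 54.2 marker UMIs per 10000, and their summed Ctss, Tyrobp and Cst3, which the rule did not use, was 494 per 10000. The 43 cells left out with exactly 2 markers had 6.96 and 79.3. On the other side, 99 members had exactly 1 gene of another cell type and 922 UMIs per 10000 of those 3 genes, against 808 in the 106 cells left out for having 2 such genes. In all, 231 ventral cells had at least 3 markers and more than 1 gene of another type. Their median depth was 6571 UMIs, so deep cells and mixed profiles were removed together and these cannot be told apart. No doublet caller was run, and the authors' handling of doublets is not given in the sources used here.

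In the dorsal dentate gyrus (dorDG), where the authors deposited a name for each cell, the same rule chose 90 cells, of which 84 (93.3%) carried 1 of the authors' microglial names. It took 40.0% of the 210 cells with those names. The loss came mostly from cells with more than 1 gene of another type, which numbered 107, while 19 had fewer than 3 markers. The rule was therefore narrow rather than complete, and no such annotation was used for the ventral cells.

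What marked the members against the remaining venDG cells was a set of myeloid genes, given as levels in UMIs per 10000, averaged over the 10 replicates, with no test. The other cells include the 231 left out for genes of another type, which held microglial genes too. Ctss, the lysosomal protease cathepsin S, was at 109 in members and 16.3 in other cells. Aif1, which encodes the calcium-binding protein Iba1, was at 15.2 against 2.05. The adaptors Fcer1g and Tyrobp, which carry signals of Fc receptors and Trem2, were at 15.9 against 2.1 and 19.5 against 3.21. Trem2 itself, the lipid-sensing receptor, was at 7.92 against 1.11. Cd74, the invariant chain of MHC class II, was at 17.1 against 2.51, and the lysozyme entry Lyc2.1 at 22.5 against 2.49. Further genes of the leading 20 were the leukocyte tetraspanin Cd53 (3.23 against 0.486), the leukotriene synthase Ltc4s (3.90 against 0.447), the lysosomal membrane protein Laptm5 (6.56 against 0.954) and Cd68 (1.248 against 0.0695). Each of these 20 was higher in members in 10 of 10 replicates, with mean folds between 5.69 and 8.84.

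**Figure D1:**
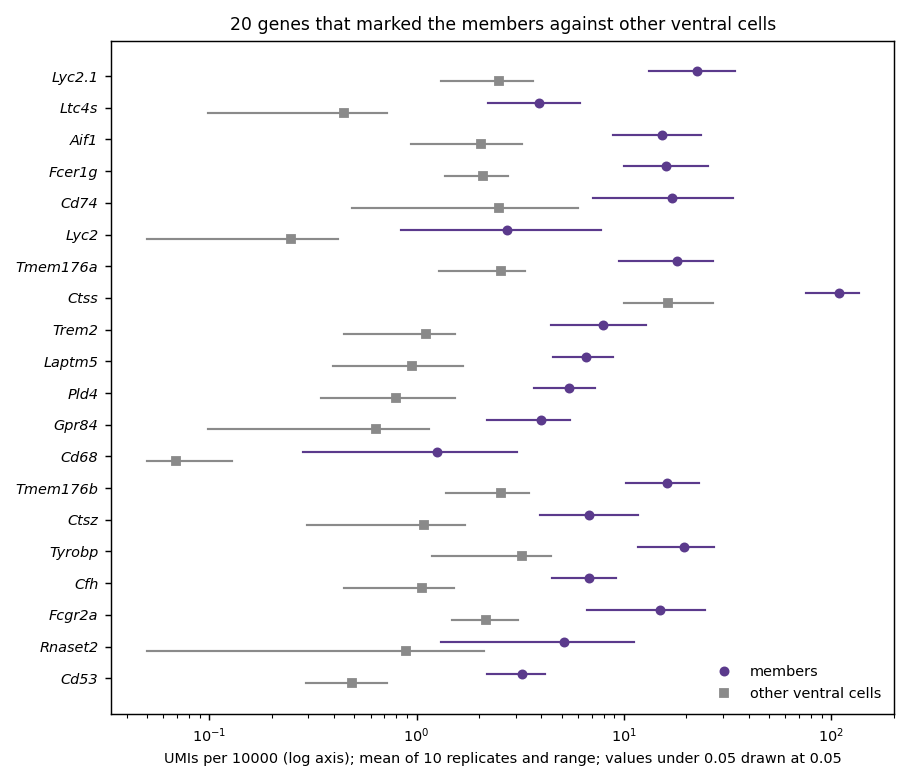
Levels of the 20 genes that marked ventral microglia, in UMIs per 10000 on a log axis, with a symbol for the mean of 10 replicates and a line for their range, in members (circles) and all other venDG cells (squares). Means of the members were above those of the other cells for each gene, for example 109 against 16.3 for Ctss, and values under 0.05 are drawn at 0.05.

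Promoters were read for these genes because several are known targets of PU.1, the transcription factor that maintains macrophage identity. Of the 20 marking genes, 15 matched a RefSeq promoter of the build GRCr8, and the 250 bases before the start were searched for the 8 letters GAGGAAGT on either strand. A match was found in Ctss and Cd53, that is in 2 of 15, while 2.04% of 27457 RefSeq promoters held it. Both are shown with the matched letters, read on the gene's strand as ACTTCCTC, in capitals. The Ctss window lies at chr2:185775146-185775395 on the plus strand and the match begins 17 bases before the start. The Cd53 window lies at chr2:197087897-197088146 on the minus strand and the match begins 46 bases before the start. A match of letters is a description and not a bound site.
Ctss: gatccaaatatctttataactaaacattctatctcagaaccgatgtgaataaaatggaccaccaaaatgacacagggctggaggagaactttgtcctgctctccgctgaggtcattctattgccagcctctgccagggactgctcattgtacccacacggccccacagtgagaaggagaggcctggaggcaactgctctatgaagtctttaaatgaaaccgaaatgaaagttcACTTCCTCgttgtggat
Cd53: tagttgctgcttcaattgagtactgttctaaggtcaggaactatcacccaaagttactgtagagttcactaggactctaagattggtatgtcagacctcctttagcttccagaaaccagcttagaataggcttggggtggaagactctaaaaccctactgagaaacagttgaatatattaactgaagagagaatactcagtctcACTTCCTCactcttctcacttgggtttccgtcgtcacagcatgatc

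Other gene groups described the identity of the members further. The homeostatic microglia list summed to 968 UMIs per 10000 in members (range 345 to 1392 over replicates) and to 171 in other cells. Complement and Fc receptor genes summed to 44.6 against 7.0, and lysosome and phagocytosis genes to 174 against 59.4. Cytokines and chemokines summed to 285 against 53.8 and ran from 19.97 to 583 over the replicates. Markers of neurons, oligodendrocytes and their precursors, astrocytes, endothelial and mural cells had lower sums in members than in the other cells in 10 of 10 replicates. Oligodendrocyte genes summed to 41.2 against 155, neuronal genes to 10.6 against 30.2, astrocyte genes to 2.90 against 14.4 and mural cell genes to 0.292 against 4.22. Border macrophage genes were higher on average, at 5.39 (range 0 to 19.4) in members against 1.43, and 17 members held UMIs of at least 2 genes of that list. Blood leukocyte genes were at 0.671 against 0.288, higher in members in 6 of 10 replicates, and 6 of the 9 in the table were at 0 in members, among them Cd3e, Cd79b and S100a8.

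The libraries differed in ways that bear on every later value. Summed UMIs per replicate ran from 16382 to 142009, so that 1 UMI in Sham replicate 5 stood for 0.61 per 10000. Sham replicate 3, with 5 cells, had a median of 0.591% of UMIs from ribosomal protein genes, against 3.89% to 10.8% in the other 9 replicates. Across all members, 37 had less than 2% of such UMIs. In Sham replicate 3 these were 4 of the 5 cells, with 47.4 UMIs per 10000 of neuronal genes. The remaining cell held 6204 of the 18029 UMIs of that replicate, and 56.4 UMIs per 10000 of border macrophage genes. FT replicates 1 and 2 and Sham replicates 1 and 2 were each loaded in 2 reactions, called first and second by library number. All 22 members from the second reactions fell under 2% ribosomal protein UMIs, against 4 of 69 members from the first reactions of the same replicates. No cell barcode was shared between members, while 5 were shared over reactions among all ventral cells. Columns whose barcode carries the suffix HiSeq4K, 170 in number and of unstated meaning, were left out by the rule, and 167 of them repeated a barcode already in the table.

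The second reactions were compared with the first within the same replicates. The comparison used FT replicate 2 (19 cells in the first reaction, 14 in the second) and Sham replicate 1 (28 and 6 cells), each replicate serving as its own block. edgeR's quasi-likelihood test called 759 of 3649 genes at an adjusted p (Benjamini-Hochberg) of at most 0.2, of which 663 were lower in the second reactions (18.2%) and 96 higher (2.63%). With library totals alone as the scaling, an alternative chosen after seeing the data, 371 were lower and 181 higher, and the median log2 difference of all genes moved from -0.24 to 0.80. The residual spread came from 2 replicates, and Sham replicate 1 contributed 7344 UMIs from its second reaction.

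Immediate early and dissociation response genes were nearly absent from the second reactions. The list summed to 125 and 117 UMIs per 10000 in the first reactions of FT replicate 2 and Sham replicate 1, and to 1.54 and 2.72 in the second. Of its 28 measured genes, 17 passed the filter on low counts and were called lower, but 13 of these had 0 UMIs in both second sums and so passed through the first reactions alone. Fos, the inducible AP-1 subunit, had 101 UMIs in the first reactions and 0 in the second, which is at least 7.88-fold lower when 3 counts over the second sums are taken as the floor. Dusp1, a phosphatase that switches off MAP kinases, had 200 and 0 UMIs and was at least 15.6-fold lower. These bounds cover counting error only.

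Chemokines and cytokines followed the same split in part. Ccl4, a chemokine for monocytes and T cells, had 2863 UMIs in the first reactions and 0 in the second, at least 224-fold lower. Its neighbour in function Ccl3 had 2662 UMIs and 1. Cxcl2, a neutrophil chemokine, had 739 and 0, at least 57.7-fold lower, and Tnf had 151 and 0, at least 11.8-fold lower. Of 20 tested genes of the list, 10 were called lower and 0 higher, so the other 10 did not pass the test in either direction. Of the 10 called lower, 7 had 0 UMIs in both second sums and so passed the filter on low counts through the first reactions alone. The summed list was at 395 and 399 UMIs per 10000 in the first reactions and at 24.6 and 34.0 in the second.

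Genes of microglial identity and metabolism gave the following counts, beside 18.2% called lower among all genes. Of 27 homeostatic genes 4 (14.8%) were called lower (Aif1, Rgs10, Spi1 and Bin1) and 1 higher (Ikzf1, a lymphoid and myeloid transcription factor). Among lysosomal genes 1 of 29 was called lower (Rab7a, which directs late endosomes), and among complement and Fc receptor genes 0 of 10 were called in either direction by edgeR. Ribosomal protein genes were called lower in 65 of 68 cases, oxidative phosphorylation genes in 32 of 55 and glycolysis genes in 7 of 14. With library totals alone these counts were 58, 17 and 2, beside 371 of all 3649 genes called lower, and 1 homeostatic gene was called lower. With DESeq2 they were 63, 14 and 3, beside 397 of all 3649 genes, and 3 homeostatic genes were called lower. Among the tested genes, 7 ribosomal protein, 10 oxidative phosphorylation, 1 glycolysis and 1 lysosomal gene had 0 UMIs in both second sums. Those genes passed the filter on low counts through the first reactions alone. The first-reaction sums of ribosomal protein genes were 742 and 529 UMIs per 10000, and the second-reaction sums 58.0 and 70.8.

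**Figure D2:**
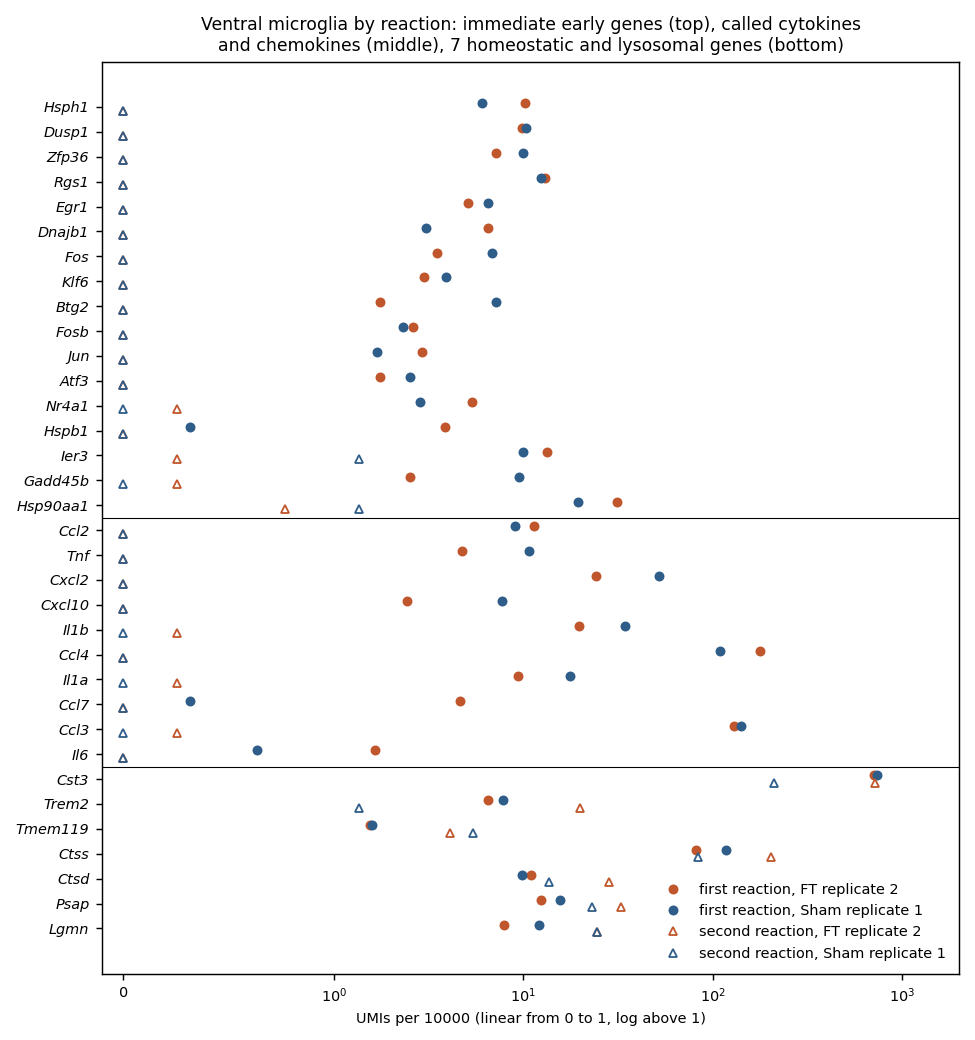
UMIs per 10000 in the first (circles) and second (triangles) reactions of FT replicate 2 and Sham replicate 1, linear from 0 to 1 and logarithmic above, for the 17 immediate early genes tested (top), the 10 cytokine and chemokine genes called lower (middle) and 7 homeostatic and lysosomal genes (bottom). Most triangles of the upper 2 groups lie at 0, such as Fos with 101 UMIs against 0, while those of the bottom group lie among or above the circles apart from Trem2 and Cst3 of Sham replicate 1. The bottom group was picked by hand and does not stand for its lists. Aif1, Rgs10, Spi1, Bin1 and Rab7a, called lower, and Ikzf1, called higher, are not drawn.

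Nfkbia, which encodes the inhibitor that holds NF-kappaB in the cytoplasm and is itself induced by it, had 616 UMIs in the first reactions and 3 in the second. Its promoter is shown because the called genes of the immediate early, cytokine and NF-kappaB lists were searched for the 9 letters GGAATTTCC on either strand. Of 29 such genes 21 matched a RefSeq promoter, and 3 held the letters, Nfkbia, Nfkbiz and Cxcl10, against 0.288% of 27457 promoters. These letters were set after a first search with a longer form, which fewer of these promoters held. Nfkbia and Nfkbiz also entered through the NF-kappaB list. The 3 of 21 therefore cannot be read against the 0.288% as an enrichment, and a match of letters is not a bound site. The window lies at chr6:78597073-78597322 on the minus strand of GRCr8, and the match, read on the gene's strand as GGAAATTCC and printed in capitals, begins 31 bases before the start.
Nfkbia: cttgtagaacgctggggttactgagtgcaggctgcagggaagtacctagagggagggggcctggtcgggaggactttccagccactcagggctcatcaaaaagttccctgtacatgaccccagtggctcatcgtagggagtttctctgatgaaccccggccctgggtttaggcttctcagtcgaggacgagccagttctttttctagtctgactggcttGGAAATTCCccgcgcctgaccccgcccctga

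The share of venDG cells that were microglia by the rule did not differ between treatments beyond the spread of replicates. It was 5.29%, 8.59%, 8.75%, 11.4% and 6.72% in FT replicates and 10.3%, 6.82%, 11.9%, 15.4% and 10.2% in Sham replicates, so the ranges overlapped. The means were 8.14% ± 2.30 and 10.9% ± 3.12 (SD, n = 5 each; two-sided exact permutation test, p = 0.135). Without the second reactions the difference was -3.76 percentage points (exact permutation p = 0.0238, unadjusted), and without Sham replicate 2 it was -3.80 (exact p = 0.0476, unadjusted). In all, 6 values of this kind were tested, and the smallest p that 5 against 5 allows is 0.00794. Fewer microglia and more of other cells in a suspension cannot be told apart from a share.

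The mitochondrial share of UMIs was lower in FT microglia before correction. Medians per replicate were 4.12%, 3.43%, 3.88%, 5.19% and 3.76% in FT and 7.27%, 5.63%, 5.10%, 3.93% and 6.04% in Sham. The ranges overlapped, with Sham replicate 4 among the FT values and FT replicates 1 and 4 above it. The means were 4.07% ± 0.670 and 5.59% ± 1.23 (n = 5 each; two-sided exact permutation p = 0.0476, adjusted p = 0.143 over 6 values), which missed the threshold after correction. Nuclear-encoded oxidative phosphorylation genes held 1.10% ± 0.145 of UMIs in FT and 0.909% ± 0.141 in Sham, a difference in the opposite direction (exact permutation p = 0.0476, adjusted p = 0.143). That difference of 0.196 percentage points was 0.0420 with at least 4 markers and -0.0978 with 0 genes of other types. Both are shares of 1 total, so the share of 1 group of genes moves with that of the others.

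Depth and ribosomal content varied more within the groups than between them. Median UMIs per member were 2946 ± 1049 in FT and 3044 ± 1026 in Sham (n = 5 each, exact permutation p = 0.873). Ribosomal protein genes took 6.59% ± 2.57 and 4.68% ± 2.94 of UMIs (exact permutation p = 0.310). Members under 2% ribosomal UMIs made up 12.1% ± 19.0 of FT and 28.3% ± 30.4 of Sham members (exact permutation p = 0.381), with 45.5% in FT replicate 2 and 80.0% in Sham replicate 3.

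**Figure D3:**
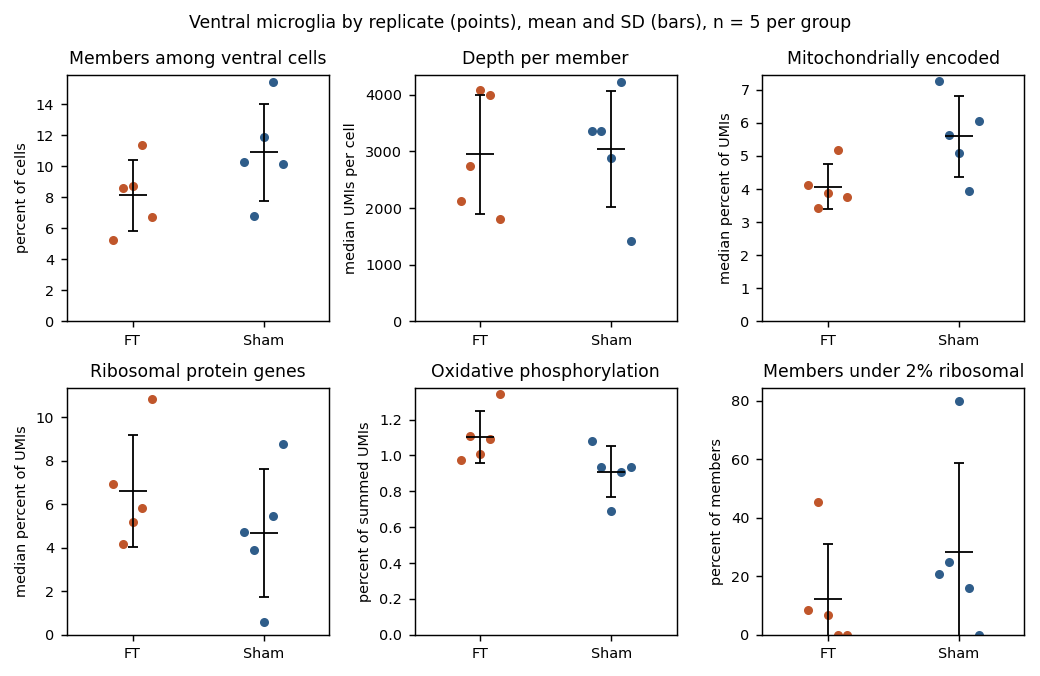
The 6 values per replicate for ventral microglia, with 1 point per replicate, the mean and the SD for FT and Sham (n = 5 each). The mitochondrial share had FT points from 3.43% to 5.19% and Sham points from 3.93% to 7.27%, and the groups overlapped in every panel.

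For gene expression, counts were summed per replicate and FT was set against Sham. No gene of 2894 tested was called by edgeR with an adjusted p no higher than 0.2 and a log2 difference of 0.32 or more in size (0% called), and the smallest adjusted p was 0.374. At an unadjusted p under 0.05 there were 113 genes, 35 with a higher mean in FT (1.21%) and 78 with a lower one (2.7%). DESeq2 called 3 genes and limma 0. The groups did not overlap in 19 genes that were higher in FT (0.657%) and 10 that were lower (0.346%). Groups of 5 against 5 replicates separate completely by chance with a probability of 0.00794, both directions together (two-sided exact permutation). Some of the 2894 genes are therefore expected to separate without any effect of treatment. Genes named below for non-overlap were chosen for that separation, which is a description and not evidence of a difference. The median log2 difference of all genes was -0.02. Because none of the genes passed, the members of each group are given below by their values and by counts of positive and negative differences. Differences are on the log2 scale. The SE printed beside an edgeR difference is an approximation, the size of the difference divided by the square root of edgeR's F statistic.

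Among genes of lysosomes and lipid sensing, Npc2, which carries cholesterol out of lysosomes, was at 49.7, 43.2, 53.6, 55.1 and 54.0 UMIs per 10000 in FT replicates and at 35.7, 25.7, 7.21, 40.1 and 34.2 in Sham replicates. The ranges did not overlap, and Sham replicate 3 was the lowest. The log2 difference was 0.79 ± 0.36 (SE; edgeR unadjusted p = 0.0425, adjusted p = 0.999). Trem2 was at 9.32, 10.2, 7.66, 12.8 and 9.0 in FT and at 7.36, 5.22, 4.44, 7.12 and 6.10 in Sham. Every FT value was above every Sham value, by a narrow gap between FT replicate 3 and Sham replicate 1. Its log2 difference was 0.65 ± 0.31 (edgeR unadjusted p = 0.0484, adjusted p = 0.999).

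Cst3, the protease inhibitor cystatin C and a highly detected microglial transcript, overlapped between the groups, at 775, 711, 1142, 865 and 1003 UMIs per 10000 in FT and 698, 607, 191, 768 and 656 in Sham. Ctsd, the aspartic protease cathepsin D, ranged from 9.06 to 19.5 in FT and from 2.77 to 10.1 in Sham. Hexa, a subunit of the lysosomal hexosaminidase, ranged from 0.619 to 2.25 and from 0 to 0.883. Over the whole lysosome and phagocytosis list, 20 of 30 tested genes had a positive difference and 10 a negative one, with a median of 0.23 against -0.02 for all genes and 0 called by edgeR. Its summed level was 198 ± 19.9 in FT and 149 ± 21.2 in Sham (n = 5 each), with ranges of 179 to 229 and 114 to 167. Npc2, named because its groups did not overlap, made up 51.1 of the FT mean and 28.6 of the Sham mean. It held 49.7 of the 179 in FT replicate 1 and 35.7 of the 167 in Sham replicate 1. In members with at least 2% ribosomal UMIs the split was 14 positive and 13 negative. The homeostatic list had 19 of 26 positive (median 0.25), and its sums of 1146 ± 177 and 789 ± 263 were mostly Cst3. These sums overlapped, at 951 to 1392 in FT and 345 to 1004 in Sham. Sham replicate 3 was the lowest, and the next Sham value was 766.

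For the chemokine and interferon-response genes with the smallest p, Sham replicate 2 held the highest values. Cxcl10, an interferon-induced chemokine, was at 1.98, 1.76, 1.24, 3.41 and 0 in FT and at 7.16, 17.4, 0.555, 1.5 and 1.83 in Sham (log2 difference -1.79 ± 0.71, edgeR unadjusted p = 0.0211). Isg15, a ubiquitin-like protein induced by type I interferon, was at 0 to 0.885 in FT and at 1.96, 9.35, 0, 0.525 and 1.83 in Sham (-2.86 ± 0.85, edgeR unadjusted p = 0.00322, adjusted p = 0.776). The groups overlapped for both genes, and for both the cell with the most UMIs was in Sham replicate 2. For Cxcl10, 1 cell held 67 UMIs, which was 26.6% of its UMIs in all members. For Isg15, 25 of the 89 UMIs came from 1 cell. Oasl, another interferon-induced gene, had 20.4 in Sham replicate 2 against at most 2.94 in any other replicate, and its difference of -1.73 became 0.44 without that replicate. The antigen presentation and interferon list as a whole had 9 positive and 7 negative differences of 16 tested, with a median of 0.06.

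The cytokine list as a whole had 8 positive and 11 negative differences of 19 tested (median -0.17), and its sums were 259 ± 84.5 in FT and 312 ± 203 in Sham. Without Sham replicate 3, whose sum was 19.97, the split was 4 positive and 15 negative. Within the list, Il6 ranged from 0.310 to 2.54 in FT and from 0 to 1.83 in Sham. Tlr2, the receptor for bacterial lipoproteins in the pattern recognition list, ranged from 0.562 to 2.02 in FT and from 0.555 to 3.70 in Sham. In that list 2 of 10 differences were positive (median -0.27).

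Ribosomal protein genes had 65 positive and 7 negative differences of 72 tested, with a median of 0.38. Rpl11 was at 9.60, 8.52, 7.82, 9.74 and 13.5 in FT and at 5.69, 4.13, 7.21, 6.82 and 6.10 in Sham (0.68 ± 0.28, edgeR unadjusted p = 0.0263, adjusted p = 0.999), without overlap. Rplp2 also did not overlap, with 6.32 to 10.1 against 2.77 to 5.49. Rpl13a did overlap, with a lowest FT value of 11.4 and a highest Sham value of 12. Genes encoded on the mitochondrial genome went the other way, with 0 positive and 13 negative of 13 tested and a median of -0.47. Mt-atp6, a subunit of ATP synthase, ranged from 103 to 152 in FT and from 129 to 231 in Sham. Mt-cyb, a subunit of complex III, ranged from 38.2 to 51.0 and from 41.9 to 84.5. The 13 mitochondrial differences were negative in each of the 5 alternatives with list counts (without Sham replicate 3, without second reactions, at least 2% ribosomal UMIs, library totals alone and median-ratio factors). Genes of 1 organelle or complex share libraries and are not independent replicates. In those alternatives 61 to 66 of 72 ribosomal protein differences were positive.

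Genes responding to stress, steroid and serotonin were tested in part. Immediate early genes had 13 positive and 5 negative differences (median 0.19), with sums of 102 ± 11.1 in FT and 74.7 ± 38.4 in Sham. Fos was at 11.3, 2.54, 7.35, 5.94 and 6.19 in FT and at 6.38, 3.26, 0.555, 4.20 and 3.05 in Sham, and the ranges overlapped. Without Sham replicate 3, whose list sum was 10.5, the split was 10 positive and 9 negative. Hsp90aa1, a heat-shock chaperone, ranged from 20.4 to 46.7 and from 7.21 to 29.8. Tsc22d3, the glucocorticoid-induced leucine zipper, ranged from 0 to 3.02 in FT and from 0 to 0.825 in Sham, while the glucocorticoid list had 1 positive and 5 negative differences. Of 17 serotonin receptor, transport and breakdown genes in the table, only the receptor Htr2a passed the filter on low counts. Htr2a ranged from 0.562 to 1.64 in FT and from 0 to 1.66 in Sham (0.38 ± 0.49, edgeR unadjusted p = 0.440). The other 16 were too sparse for a test at this depth.

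**Figure D4:**
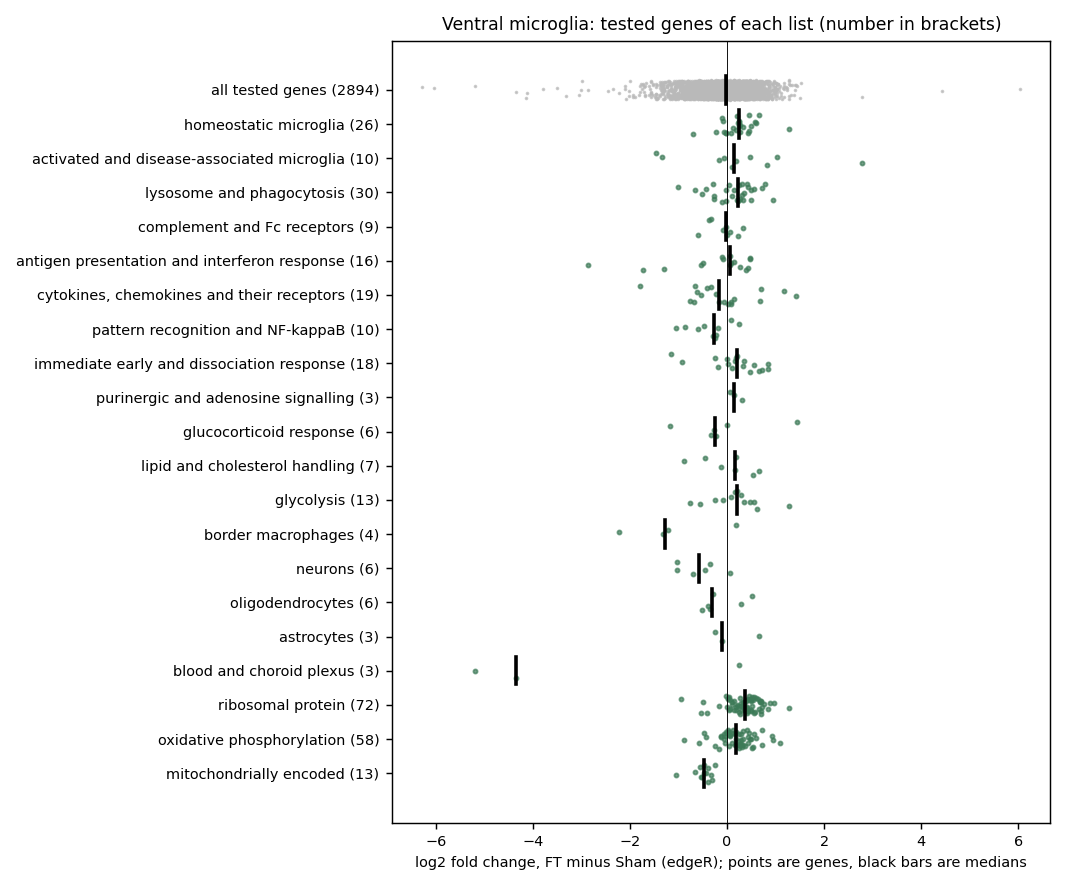
Log2 differences of FT against Sham for the tested genes of each list in ventral microglia, with 1 point per gene and black bars for the medians of each list and of all 2894 genes. The mitochondrially encoded genes all lay below 0 (median -0.47), and 65 of 72 ribosomal protein genes lay above 0 (median 0.38).

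Other genes with higher FT values and no overlap came from several classes. Fcrl2, an Fc receptor-like gene, was at 2.54, 2.68, 2.01, 2.66 and 1.69 in FT and at 1.57, 0.869, 0.555, 0.675 and 0.610 in Sham (1.27 ± 0.42, edgeR unadjusted p = 0.00652, adjusted p = 0.999). It rested on 97 UMIs in FT and 31 in Sham. Txndc15, a thioredoxin domain protein, ranged from 14.3 to 23.6 in FT and from 7.36 to 12 in Sham. Itm2b, a membrane protein whose mutations cause familial dementias, ranged from 4.68 to 10.4 and from 3.33 to 4.27. Rtn3, a reticulon of the endoplasmic reticulum, ranged from 2.46 to 3.54 and from 1.11 to 2.44. Bcas1, known from early myelinating oligodendrocytes, ranged from 3.17 to 5.62 and from 1.11 to 2.44, while the oligodendrocyte list had sums of 37.4 ± 7.26 in FT and 45.0 ± 14.1 in Sham. Prdx2, a peroxide-reducing enzyme, ranged from 1.62 to 2.81 and from 0 to 1.57.

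Genes with lower FT values and no overlap were mostly of low abundance. Slc17a8, the vesicular glutamate transporter VGLUT3, had the smallest unadjusted p of the table and was at 0, 0.0704, 0.0774, 0.253 and 0 in FT and at 0.981, 1.96, 2.22, 0.600 and 0.610 in Sham. Its log2 difference was -3.31 ± 0.70 (edgeR unadjusted p = 0.000155, adjusted p = 0.374). These values came from 36 UMIs in 26 cells, 4 of them FT and 22 Sham, and the Sham replicate 5 value was 1 UMI. Fyb, an adaptor of immune cells, was at 0.565, 0.986, 0.619, 0.379 and 0.562 in FT and at 1.57, 1.96, 2.77, 1.27 and 4.27 in Sham (-1.56 ± 0.45, edgeR unadjusted p = 0.00249, adjusted p = 0.706).

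The remaining genes of this kind include several better known from neurons and glia. Mgll, the lipase that degrades the endocannabinoid 2-arachidonoylglycerol, ranged from 0 to 0.282 in FT and from 0.300 to 2.22 in Sham. Mgat5, which branches N-glycans, ranged from 0 to 0.915 and from 1.22 to 2.77, and Gria3, an AMPA receptor subunit, from 0.126 to 0.565 and from 0.600 to 1.11. Erbb4, a neuregulin receptor, ranged from 0.759 to 1.13 and from 1.22 to 4.99. Fam129a, Gpr98, Phf12 and the lactate dehydrogenase subunit Ldhb completed the 10, each with FT values below 0.76. Sham replicate 3 held the highest value for Mgat5, Mgll, Gria3, Gpr98, Phf12, Erbb4 and Slc17a8. Neuronal marker genes summed to 7.38 ± 3.58 in FT members (range 3.94 to 13) and 13.9 ± 10.4 in Sham members (6.97 to 32.2). In members under 2% ribosomal UMIs the sums were 52.9, 30.1, 47.4 and 6.78 in Sham replicates 1 to 4. They were 4.38, 12.2 and 10.5 in FT replicates 1 to 3. The other members held 3.22 to 8.55 in Sham and 3.94 to 13.3 in FT. Homeostatic sums of those low-ribosomal Sham members were 291, 1115, 403 and 525. The part of neuronal RNA in the values of the named genes was not tested.

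**Figure D5:**
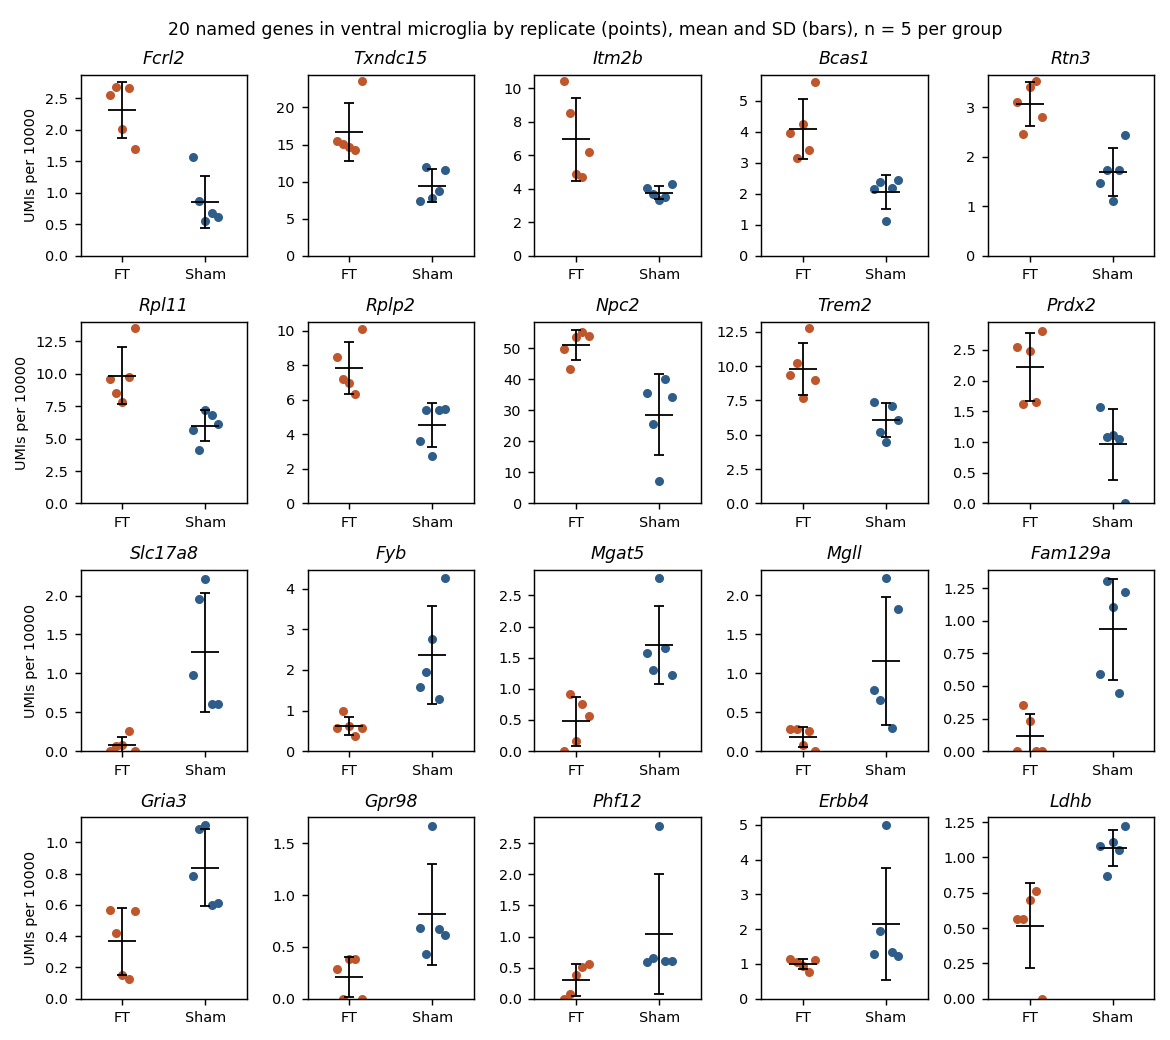
Levels of the 20 named non-overlapping genes in ventral microglia, in UMIs per 10000 on linear axes that start at 0, with 1 point per replicate and bars for the mean and SD in FT and Sham (n = 5 each). Every FT point of Npc2 lay at or above 43.2 and every Sham point at or below 40.1, and for Slc17a8 the FT points lay at or below 0.253 and the Sham points at or above 0.600.

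Several large differences in the table rested wholly or partly on single cells. Hbb, the beta chain of hemoglobin, was at 124 UMIs per 10000 in Sham replicate 4 and at no more than 3.91 in any other replicate (log2 difference -5.18 ± 1.28, edgeR unadjusted p = 0.000697, adjusted p = 0.385). A single cell of that replicate, with 7857 UMIs, held 1655 of the 1729 Hbb UMIs. The 4 genes Hbb, Hbb-b1, Hba1 and Hba2 made up 56.6% of its UMIs. That share leaves out LOC689064 and LOC100134871, which are counted below as hemoglobin genes. For these 2 loci, the largest cell was also in Sham replicate 4, with 1841 of 1958 and 427 of 450 UMIs. Sec14l1, named after its values were seen, had 82 of 140 UMIs in 1 cell of Sham replicate 4. Btbd11, named in the same way, had 121 of 297 in 1 cell. The remaining UMIs of both genes were also mostly Sham, with Btbd11 at 10.0 UMIs per 10000 in Sham replicate 2 and Sec14l1 at 2.35 in Sham replicate 1.

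The same rule in dorDG gave 90 cells in 4 FT and 5 Sham replicates, which are other libraries than those of venDG. The study describes 1 set of animals for both regions, so their replicates may share animals, while the fits treated them as independent. edgeR called 11 of 3047 genes, 10 higher in FT (0.328%) and 1 lower (0.0328%), and DESeq2 called 0. Of these, 6 were hemoglobin genes carried by 1 cell of FT replicate 1 that held 9321 UMIs. The 4 genes Hbb, Hbb-b1, Hba1 and Hba2 made up 55.4% of its UMIs. That share leaves out LOC689064 and LOC100134871, whose largest cells, in FT replicate 1, held 1466 and 367 UMIs. Tagln, Mt1m and Btbd11 each had most of their UMIs in 1 cell. Without cells over 1% hemoglobin, an alternative chosen after seeing the data, 4 genes were called, which were Btbd11, Tagln, Cxcl1 and Mt1m. Without FT replicate 1 the count was 2, without Sham replicate 3 it was 0, and without FT replicate 2 or FT replicate 5 it was 18.

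Fcrl2 was the called dorsal gene whose ventral groups also did not overlap. In dorDG it was at 3.09, 0.955, 2.87 and 3.92 in FT replicates 1, 2, 4 and 5 and at 0.332, 0, 1.53, 0.562 and 0 in Sham replicates, so that FT replicate 2 lay below Sham replicate 3. The log2 difference was 2.66 ± 0.71 (edgeR adjusted p = 0.185, range 2.33 to 3.38 over the alternatives) in dorDG and 1.27 ± 0.42 in venDG, where it was not called. The dorsal call was lost with DESeq2 (adjusted p = 0.998), with at least 2% ribosomal UMIs (0.399), without the hemoglobin-rich cells (0.271) and in 8 of 9 fits that left out 1 replicate. The test of the difference between the regions gave -1.36 (edgeR adjusted p = 0.9998).

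That test, the interaction of region and treatment, called 7 of 2916 genes, all lower in venDG relative to dorDG (0.24%). They were 6 hemoglobin genes and Sec14l1, whose cells are described with the single-cell values. Without venDG Sham replicate 4, without dorDG FT replicate 1 or without the hemoglobin-rich cells, edgeR called 0, and DESeq2 also called 0. In the fit of all samples, 74 genes had an unadjusted p under 0.05.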

How the data were processed

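Whole cells and nuclei of the rat dentate gyrus were profiled with 10x 3′ v2 chemistry on an Illumina HiSeq. The authors aligned the reads with Cell Ranger against rn5, per the labels, and deposited 1 table of raw UMI counts per region. Their log-normalized values and their fold changes were not used. Their dorsal cell names served to check the rule, and no ventral names were used here. The members, the gene lists, the 2% ribosomal limit and the tests were chosen with earlier results of these data known.

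Counts of member cells were summed per labelled replicate with at least 5 such cells. Tests used edgeR 4.0.16 (R 4.3.3), with TMM factors and the quasi-likelihood method, over genes averaging 0.5 UMIs per 10000 or more. After the study's thresholds, a call needed an adjusted p (Benjamini-Hochberg) no higher than 0.2 together with a log2 fold change of 0.32 or more in size. DESeq2 1.42.0 and limma 3.58.1 (log2 of UMIs per 10000 plus 0.01) were alternatives. The 6 values per replicate were compared with two-sided exact permutation tests (scipy 1.17.1) and adjusted over 6. Other alternatives changed the normalization, the low-count filter, the rule for members, the replicates, the reactions and the replicate block. The scripts were tested on simulated counts.

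Genes were named by rule. These were the 20 with the highest mean log2 ratio of members to other venDG cells (UMIs per 10000 plus 0.1, at least 1 per 10000 in members), then for FT against Sham the called genes, filled to 10 per direction by unadjusted p among genes whose groups did not overlap, and up to 3 genes per list. Unnamed loci were left out. Genes outside the rule are marked as such, and a few results are not reported here. The reaction comparison and promoters are described with the genes they rest on. Median depth was 3377 UMIs and 1431 genes per member, and intervals and floors cover counting error only. Each replicate is a pool of 3 animals, so p-values measure the spread between pools. The 20 pairs of same-group replicates differed by a chi-square of 1.92 to 6.07 per degree of freedom, so none was a duplicate. Deviations of same-numbered FT and Sham replicates correlated at -0.0551 to 0.108, while pairs of other numbers reached -0.3 and 0.304. Sums of 5 to 34 cells cannot show whether the numbers are pairs. Numbers 1 and 2 had 2 reactions in both treatments. For its bulk tissue, the study processed Sham and FT samples of a replicate in parallel, and it does not state this for single cells. The main fits of treatment did not use the numbers as blocks, and counts with the block are given below. A dorsal FT replicate 3 was not analysed here. Promoter sequences are RefSeq's on GRCr8, and no coordinate of it was combined with rn5.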

Additional observations from a re-analysis of the deposited data

Results flagged for a closer look

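Values were compared within each group of 5 replicates, and a replicate far from the nearest other one was marked by Dixon's criterion. Of 108 groups examined 18 were marked, while chance marks about 1 in 20. Some of the genes examined were chosen after their values were seen or because their groups did not overlap, so the number of marks cannot be read against that rate. Sham replicate 3, the sum of 5 cells, stood apart most often. It was low for Bcas1 (1.11 UMIs per 10000) and Cst3 (191) and high for Mgat5 (2.77), Gpr98 (1.66), Phf12 (2.77), Erbb4 (4.99) and Arhgap28 (1.11).

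FT replicate 5, the sum of 8 cells, was high for Txndc15 (23.6) and the border macrophage list (12.4), and it had 0 UMIs of Ldhb. Sham replicate 2 was high for the interferon-induced genes Isg15 (9.35) and Oasl (20.4). Sham replicate 4 was high for Hbb (124 UMIs per 10000), Hbb-b1 (25.3) and Sec14l1 (7.12), values that rested on single cells. FT replicate 2 had the marked share of members under 2% ribosomal UMIs, 45.5%, and 14 of its 33 members came from its second reaction. Btbd11 was at 1.69 in FT replicate 1, above the other FT replicates.

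Arhgap28 was at 67.0 UMIs per 10000 in FT replicate 2, against at most 0.0774 in the other FT replicates. It was held by 17 FT members and, named after its values were seen, averaged 14.7 over FT replicates and 0.472 over Sham replicates in the other venDG cells, where the highest replicate was at 72.3.

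Differences between the regions were marked by the interaction test for Hbb (log2 -10.91), Hbb-b1 (-10.20), Hba1 (-7.85), Hba2 (-6.95) and Sec14l1 (-5.68). They rest on 1 Sham cell in venDG and 1 FT cell in dorDG for hemoglobin, and none was called without either replicate.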

How the results depend on the processing

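The count of ventral genes called, 0 by edgeR, became 3 with DESeq2 (Slc17a8, Rgl1 and Sec14l1), 18 with no filter on low counts, 4 with at least 10 cells per replicate, 4 without border macrophage profiles and 0 to 5 when 1 replicate was left out, the 5 arising without Sham replicate 1. The dorsal count of 11 became 0 with DESeq2, 0 with at least 2% ribosomal UMIs, 4 without hemoglobin-rich cells and 0 to 18 with 1 replicate left out. The interaction count of 7 became 0 with DESeq2, 0 with at least 2% ribosomal UMIs, 0 without hemoglobin-rich cells and 0 to 9 with 1 replicate left out. DESeq2 called 404 genes between reactions against 759. With the replicate number as a block, the edgeR fits called 7 ventral, 20 dorsal (Fcrl2 among them, edgeR adjusted p = 0.00813) and 5 interaction genes. Of the same-number correlations 2 of 5 exceeded 0.1, and 2 of 5 FT and 1 of 5 Sham replicates correlated best with their own number. These correlations cannot decide whether the numbers are pairs. Without a replicate block 1120 genes were called between reactions.

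The difference in microglial share ranged from -3.80 to -1.65 with 1 replicate left out and was -3.76 without second reactions. Its unadjusted exact p was under 0.05 there and without Sham replicate 2 (-3.80). The difference in median UMIs ranged from -503 to 194 with 1 replicate left out and turned positive with 2 markers (54.5), with 0 genes of other types (96.8) and as a mean over cells (53.0). The mitochondrial difference kept its direction but lost its unadjusted p under 0.05 with 2 markers (-1.34), 4 markers (-1.31), 0 genes of other types (-1.94), means (-1.25) and without second reactions (-1.48), and ranged from -1.93 to -1.10 with 1 replicate left out. Its unadjusted exact p also rose above 0.05 without FT replicate 1, 2, 3 or 5 and without Sham replicate 1, 2 or 5. The oxidative phosphorylation difference was 0.0420 with 4 markers, 0.150 with at least 2% ribosomal UMIs, 0.223 without second reactions and -0.0978 with 0 genes of other types, and ranged from 0.136 to 0.239 with 1 replicate left out. Its unadjusted exact p was above 0.05 in these named settings, and also without FT replicate 2, 4 or 5 and without Sham replicate 2, 3, 4 or 5. The low-ribosomal difference reversed to 8.33 with 0 genes of other types and otherwise ranged from -24.6 to -3.34 with 1 replicate left out.

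Among 44 genes, 13 differences changed sign. In members under 2% ribosomal UMIs, with 3 sums, they were Bcas1 -1.26, Rpl11 -2.14, Prdx2 -2.71, Tlr2 1.37, Fos -2.46, Rpl13a -1.04 and Btbd11 0.24. With 0 genes of other types they were Ldhb 0.21, Hexa -0.13 and Cxcl10 0.13, with limma Ftl1 0.21 and Arhgap28 -0.58, and Oasl ranged from -2.15 to 0.44 with 1 replicate left out, the latter without Sham replicate 2. In 25 further cases a gene passed the threshold under an alternative, and 1139 kept direction and side. The causes were not tested, apart from the smaller number of sums and cells that some settings leave. With 5 to 34 cells per replicate, values near 1 UMI limit the genes of low abundance.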
